A study of Arabidopsis thaliana with 24 samples.

Results

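The cytosolic ribosomal protein genes described here are 40 nuclear loci of Arabidopsis thaliana, given as a list of loci: 13 genes for proteins of the small (40S) subunit and 27 genes for proteins of the large (60S) subunit, in 20 paralogue groups. They are 40 of the 22582 annotated genes at which transcription start sites were listed. Start sites were measured by CAGE, in which the capped 5′ ends of RNA molecules are captured and sequenced as tags, so that tag counts do not scale with the length of the gene. A member's tags are those of start-site clusters on its strand with a peak from 500 bp upstream of the annotated gene start to the gene end. By this rule 884 of 317183 clusters, with 1177051 tags, belonged to members, and 4 of these clusters, with 21 tags, also lay in the windows of 3 other genes.

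The study used wild-type seedlings of the accessions Altenb-2, Shigu-2, Kly-1 and Vash-1, natural strains of the species. The material was the aerial parts at 2 weeks. Treated plants had 24 h at 4 °C under light of 140 µE. Control plants were kept at 22 °C under 40 µE, and light was continuous. The labels describe 24 libraries in 8 groups of 3, but the deposited clusters come in 4 sets, without a column for library, treatment or replicate, and the sets are named here by accession only because the initials of their cluster identifiers match. The libraries behind each set are not known from the sources used here. A difference between sets cannot be assigned to accession or to treatment (they cannot be told apart), no value has a replicate error, and no test was made. In these whole aerial parts, fewer cells of a type and less RNA per cell cannot be told apart.

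Outside the nuclear rRNA repeats, which took 40.8% to 54.6% of all tags, the sets held 22462179 tags (Altenb-2), 37230794 tags (Shigu-2), 29311532 tags (Kly-1) and 24535666 tags (Vash-1), and levels are given in CPM, the tag count scaled to 1000000 of these tags. Clusters of fewer than 5 tags are not in the files, which is 0.223 CPM in the shallowest set. The 5 shoot markers summed to 66845 CPM in Altenb-2, 47295 in Shigu-2, 61040 in Kly-1 and 60861 in Vash-1. Among 5 root markers, EXPA7 was at 0 in every set and SHV2 was at 0 in 3 sets.

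A ribosome is built from rRNA and many proteins, most of them needed in equal numbers, and in plants nearly every one of these proteins is encoded by a small family of nuclear genes. Promoters of these genes in Arabidopsis are known for site II elements, which TCP transcription factors bind, and for the telo-box, a short sequence like the plant telomere repeat. Ribosomal protein genes are highly active in growing shoots, and they answer to TOR signalling, which ties protein synthesis to growth.

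The starts below are the main peaks, the highest point of the cluster with the most tags, each shown from 50 bases upstream to 10 bases from the peak on, 5′ to 3′ on the strand of the gene. The sequence is RefSeq's TAIR10.1, not that of the accessions, and position +1 is the peak, with no position 0. Capitals mark the peak base, any TATA motif (TATAAA or TATATA starting 40 to 25 bases upstream) and any telo-box (AAACCCTA on either strand, so that TAGGGTTT is its reverse). The first 7 are the members whose telo-box covers the peak itself, and RPL23AB is shown because its telo-box begins at the next base.
RPS6A (chr4:15347716-15347775, minus strand): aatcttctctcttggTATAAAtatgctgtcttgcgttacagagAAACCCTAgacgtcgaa
RPS6B (chr5:3260215-3260274, minus strand): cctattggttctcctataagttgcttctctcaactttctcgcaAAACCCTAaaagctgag
RPS5B (chr2:15649209-15649268, minus strand): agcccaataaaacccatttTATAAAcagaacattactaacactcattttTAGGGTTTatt
RPL10C (chr1:24839122-24839181, plus strand): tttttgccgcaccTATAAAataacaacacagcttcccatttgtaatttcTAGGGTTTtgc
RPL24A (chr2:15351848-15351907, minus strand): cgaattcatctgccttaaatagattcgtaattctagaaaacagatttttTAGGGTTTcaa
AT1G70600 (chr1:26621648-26621707, minus strand): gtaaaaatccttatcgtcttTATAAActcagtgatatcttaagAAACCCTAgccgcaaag
RPL27AB (chr1:8262937-8262996, plus strand): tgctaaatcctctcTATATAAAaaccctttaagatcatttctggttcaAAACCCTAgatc
RPL23AB (chr3:20500350-20500409, plus strand): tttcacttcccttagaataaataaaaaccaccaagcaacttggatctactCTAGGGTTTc

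The next 8 starts belong to members that stand apart in the levels, shares or shapes described further on. The L4 pair AT3G09630 and AT5G02870 is shown because its shares differed between sets. The L9 gene AT4G10450, RPL3B and AT3G11250 are shown for differences in level between sets. EMB2296 and AT2G40010 are shown for the concentration of their tags on 1 base, and RPL10B for its start inside a pyrimidine run.
AT3G09630 (chr3:2953711-2953770, plus strand): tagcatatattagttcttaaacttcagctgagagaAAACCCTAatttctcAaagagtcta
AT5G02870 (chr5:657759-657818, plus strand): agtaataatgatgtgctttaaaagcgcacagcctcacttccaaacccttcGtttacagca
AT4G10450 (chr4:6464516-6464575, minus strand): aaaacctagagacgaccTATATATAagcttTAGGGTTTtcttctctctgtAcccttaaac
RPL3B (chr1:22723141-22723200, minus strand): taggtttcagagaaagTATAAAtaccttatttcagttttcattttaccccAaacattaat
AT3G11250 (chr3:3521356-3521415, plus strand): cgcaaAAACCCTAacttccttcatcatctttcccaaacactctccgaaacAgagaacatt
EMB2296 (chr2:7837056-7837115, plus strand): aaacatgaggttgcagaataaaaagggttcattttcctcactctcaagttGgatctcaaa
AT2G40010 (chr2:16710628-16710687, minus strand): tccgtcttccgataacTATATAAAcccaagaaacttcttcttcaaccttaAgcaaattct
RPL10B (chr1:9321603-9321662, plus strand): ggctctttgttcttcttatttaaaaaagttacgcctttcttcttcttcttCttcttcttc

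Longer stretches, from 130 bases upstream to 5 bases from the peak on, show the site II elements (TGGGCC or TGGGCT on either strand, so that GGCCCA and AGCCCA are their reverses) of 3 members whose main peak lies within 40 bp of the annotated gene start. Capitals mark these elements beside the features marked above. In RPS6B, elements of both strands share bases in 1 stretch, and in RPS5A, a site II element runs into the upstream telo-box.
RPS6B (chr5:3260220-3260354, minus strand): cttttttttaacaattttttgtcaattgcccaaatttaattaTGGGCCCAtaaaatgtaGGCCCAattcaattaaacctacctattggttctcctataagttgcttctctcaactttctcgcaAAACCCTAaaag
RPS10B (chr5:16610662-16610796, minus strand): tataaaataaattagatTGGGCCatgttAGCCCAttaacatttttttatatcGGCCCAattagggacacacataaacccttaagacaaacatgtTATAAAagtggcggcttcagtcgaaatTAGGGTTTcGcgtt
RPS5A (chr3:3779502-3779636, minus strand): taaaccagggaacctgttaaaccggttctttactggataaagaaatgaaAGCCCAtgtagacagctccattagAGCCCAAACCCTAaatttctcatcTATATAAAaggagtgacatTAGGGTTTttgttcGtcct

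Members took 0.843% of the tags outside the rRNA repeats in Altenb-2 (95% Wilson interval 0.839% to 0.847%), 1.15% in Shigu-2 (1.145% to 1.151%), 1.07% in Kly-1 (1.066% to 1.073%) and 1.01% in Vash-1 (1.002% to 1.010%). The intervals cover counting error only, since tags are not known to be separate molecules. Over the 4 sets the share was 1.04%. The share was lowest in Altenb-2 for either subunit. The 13 genes of the 40S subunit summed to 2371 CPM in Altenb-2, 3442 in Shigu-2, 3205 in Kly-1 and 2891 in Vash-1. The 27 genes of the 60S subunit summed to 6060 CPM in Altenb-2, 8039 in Shigu-2, 7489 in Kly-1 and 7169 in Vash-1.

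Levels differed far more between members than between sets, as the plot of levels by gene shows. Mean levels over the 4 sets reached 914 CPM at AT5G02870, and 10 members lay at or above 374 CPM, the level of RPS13A. The other end held 8 members below 11 CPM. Each paralogue group of more than 1 gene had the same leading gene in all 4 sets (0 of 16 groups changed it). For the L9 group this is uncertain, because the start sequences of PGY2 and AT1G33120 each occur at 2 places in the genome. These L9 genes are also among the 8 members below 11 CPM.

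**Figure D1:**
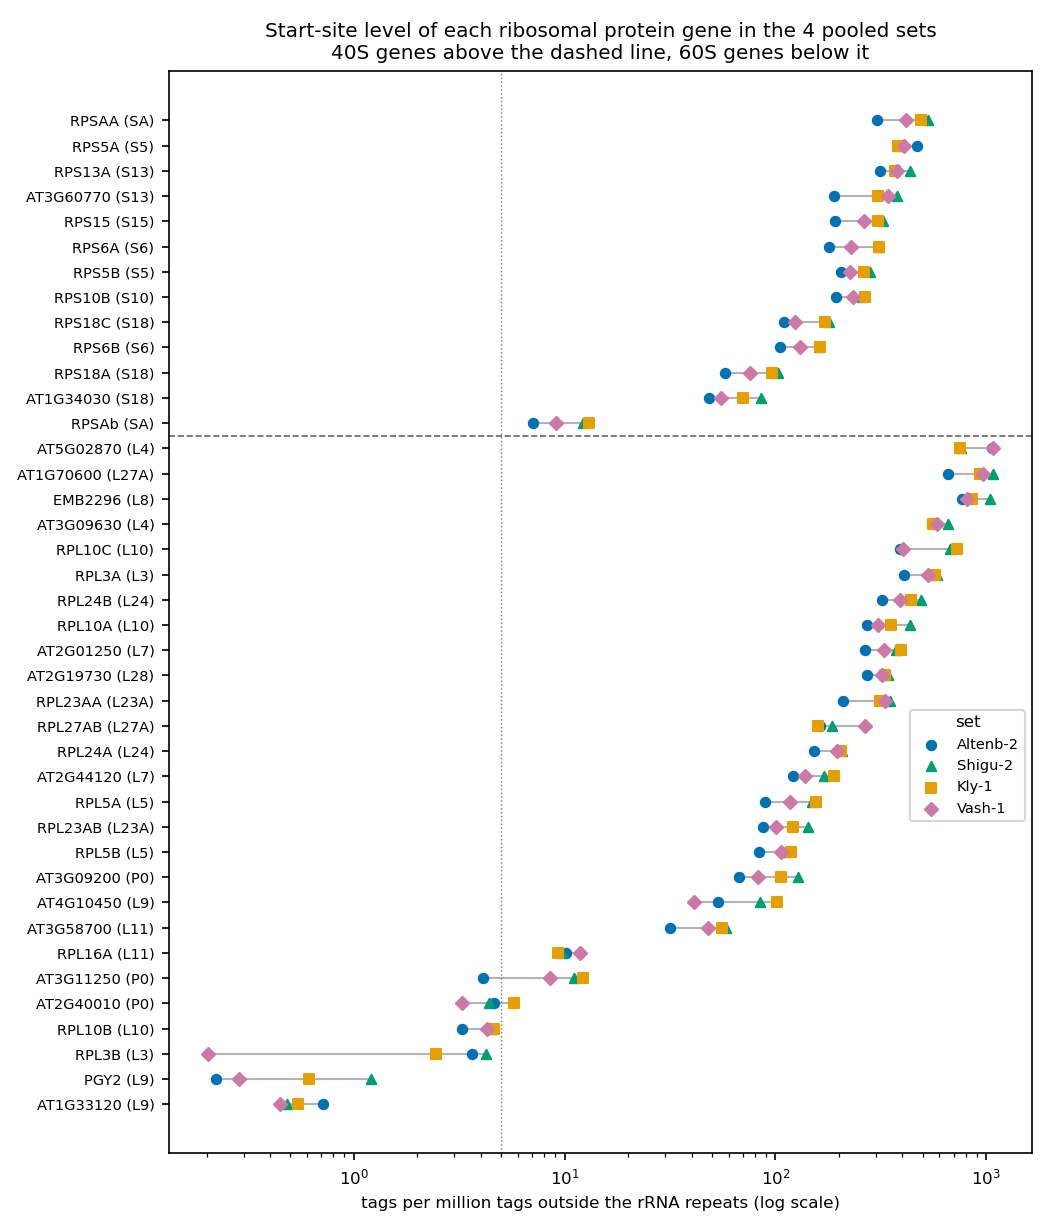
CPM over the tags outside the rRNA repeats (log axis) for each of the 40 members, 1 marker per pooled set, with a grey line from the lowest to the highest set, 40S genes above the dashed line and 60S genes below it. The dotted line marks 5 CPM. Most members have the Altenb-2 marker at the left end of their line, and RPL3B has the longest line, with Vash-1 at 0.204 CPM.

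Altenb-2 was the lowest set for 31 of the 40 members, against 39.1% of the 14774 genes with 5 CPM or more in at least 1 set. Kly-1 was lowest for 5 members (18.6% of all genes), Vash-1 for 4 (25.9%) and Shigu-2 for 0 (16.4%). Shigu-2 was the highest set for 23 members (41.5% of all genes), Kly-1 for 12 (21.3%), Vash-1 for 3 (19.2%) and Altenb-2 for 2 (18%). Unlike the genes behind these shares, the 40 include members below 5 CPM in every set. Among the 36 at 5 CPM or more, Altenb-2 was lowest for 29, Kly-1 for 5, Vash-1 for 2 and Shigu-2 for 0. Shigu-2 was highest for 21 of the 36, Kly-1 for 11, Vash-1 for 3 and Altenb-2 for 1. On the log2(CPM + 0.5) scale, each set was set against the mean of the other 3. The 36 members that reached 5 CPM in at least 1 set had a median difference of −0.45 in Altenb-2, against −0.13 for all genes. It was 0.35 in Shigu-2, against 0.16, 0.22 in Kly-1, against 0.04, and −0.05 in Vash-1, as in all genes. Scaling by the median of gene ratios, which places the median of all genes near 0, left these medians at −0.31 in Altenb-2, 0.19 in Shigu-2 and 0.18 in Kly-1. The small difference in Vash-1 changed sign, to 0.0029. With this scaling Altenb-2 was the lowest set for 30 of the 40 members, against 28.1% of all genes, while the highest set was Kly-1 for 18 (21.8%) and Shigu-2 for 11 (25.8%).

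Other measures moved with the sets. Altenb-2, where members were lowest, had the fewest tags outside the rRNA repeats and the highest share of tags in them, 54.6%, against 40.8% in Shigu-2. The root markers summed to 8.10 CPM in Altenb-2, 2.93 in Shigu-2, 3.21 in Kly-1 and 7.25 in Vash-1, and LRX1 made up most of the sum in Altenb-2 (6.50 CPM) and Vash-1 (4.73 CPM). CASP1 ran otherwise, lowest in Altenb-2 at 1.07 CPM and highest in Kly-1 at 2.22 CPM. Of the 5 shoot markers, 4 were lowest in Shigu-2, where most members were highest, and RBCS1A was lowest in Altenb-2, at 17277 CPM against 17387 CPM in Shigu-2. The part of these measures in the members' differences was not tested.

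**Figure D2:**
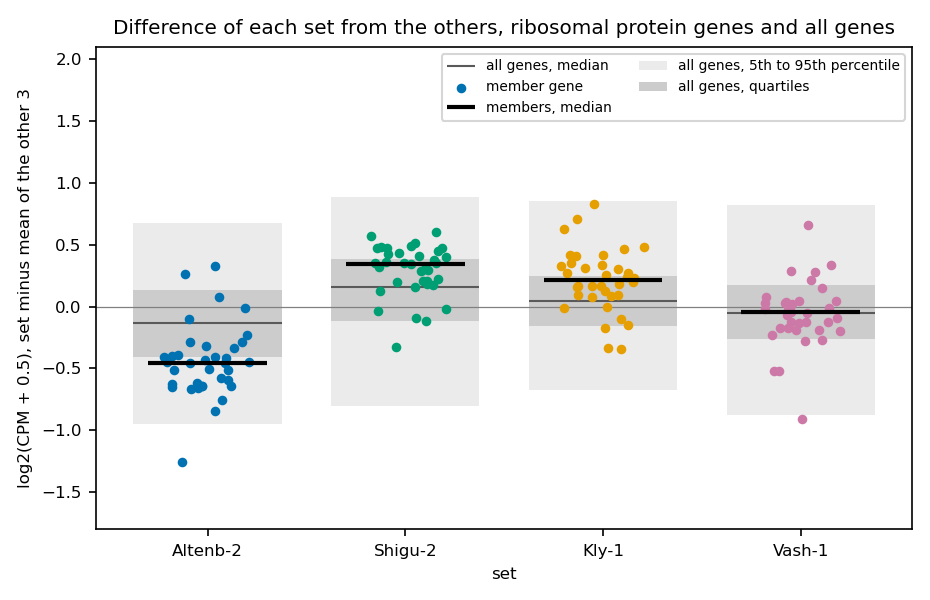
Difference of each set from the mean of the other 3 sets on the log2(CPM + 0.5) scale, 1 point per member among the 36 with 5 CPM or more in at least 1 set, with points spread sideways only to part them. Grey bars give the quartiles and the 5th to 95th percentiles of all 14774 genes, and black lines the medians of the members, −0.45 in Altenb-2 and 0.35 in Shigu-2.

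Few members differed by 2-fold between sets. Of the 36, 2 spanned 2-fold or more from the lowest to the highest set, against 23.5% of all genes, and 1 lay 2-fold or more from the mean of the other sets in any set and direction, against 15.6%. Without the Altenb-2 set, or without the Vash-1 set, 1 of 36 spanned 2-fold, and with the rRNA tags kept in the totals, 18 of 35 did. Keeping the rRNA tags also moved the median difference of all genes in Altenb-2, from −0.13 to −0.36. No share of all genes spanning 2-fold is given at these settings, so these counts cannot be called high or low. The median range was 0.70 for members and 0.62 for all genes on the log2 scale. Among other cytosolic ribosomal protein genes (66 genes of a related list, 62 of them with 5 CPM), 6 spanned 2-fold, and the median difference was −0.43 in Altenb-2, 0.31 in Shigu-2, 0.17 in Kly-1 and −0.08 in Vash-1. Among 28 nuclear genes of plastid ribosomal proteins, which belong to the ribosome inside the chloroplast, 1 spanned 2-fold. Their median difference was 0.12 in Altenb-2, −0.26 in Shigu-2, 0.06 in Kly-1 and −0.01 in Vash-1. Shigu-2 was the lowest set for 0 of the 40 members and for 19 of the 28 plastid ribosomal protein genes, against 16.4% of all genes. With median-of-ratios scaling it was lowest for 4 of 40 members, against 26.8% of all genes. No count of the plastid ribosomal protein genes is given with that scaling.

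Small-subunit proteins come first. RPSAA and RPSAb encode the S-A protein, related to the laminin receptor precursor of animals. RPSAA had 302 CPM in Altenb-2, 530 in Shigu-2, 489 in Kly-1 and 415 in Vash-1. RPSAb had 7.08 CPM in Altenb-2, 12.2 in Shigu-2, 13.1 in Kly-1 and 9.05 in Vash-1. RPSAA held 97.4% to 97.9% of the group's tags in every set, and RPSAb from 2.13% in Vash-1 to 2.61% in Kly-1. The group's summed level ranged 1.75-fold. The S5 genes differed. RPS5A, known for promoter activity in dividing cells, had 470 CPM in Altenb-2, 386 in Shigu-2, 380 in Kly-1 and 409 in Vash-1. RPS5B had 205 CPM in Altenb-2, 280 in Shigu-2, 263 in Kly-1 and 225 in Vash-1. RPS5A was thus highest and RPS5B lowest in Altenb-2, and their sum moved by 1.06-fold only.

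RPS6A and RPS6B encode S6, the subunit protein that S6 kinase phosphorylates downstream of TOR. RPS6A had 179 CPM in Altenb-2, 309 in Shigu-2, 308 in Kly-1 and 228 in Vash-1. RPS6B had 105.2 CPM in Altenb-2, 161 in Shigu-2, 162 in Kly-1 and 131 in Vash-1. Both genes were low in Altenb-2 and high in Kly-1 and Shigu-2. RPS6A held 62.9% of the pair's tags in Altenb-2, 65.7% in Shigu-2, 65.5% in Kly-1 and 63.5% in Vash-1.

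RPS13A had 312 CPM in Altenb-2, 435 in Shigu-2, 369 in Kly-1 and 379 in Vash-1. Its paralogue AT3G60770 had 190 CPM in Altenb-2, 378 in Shigu-2, 307 in Kly-1 and 342 in Vash-1. AT3G60770 came just short of the 2-fold span, at 1.99-fold. RPS18A (also known as POINTED FIRST LEAF), AT1G34030 and RPS18C encode S18. RPS18C led with 110 CPM in Altenb-2, 180 in Shigu-2, 172 in Kly-1 and 124 in Vash-1. The 3 genes kept their shares within 3.13 percentage points across sets. RPS15, the S15 gene among the members, had 193 CPM in Altenb-2, 325 in Shigu-2, 307 in Kly-1 and 263 in Vash-1. RPS10B, the S10 gene, had 193 CPM in Altenb-2, 258 in Shigu-2, 267 in Kly-1 and 234 in Vash-1.

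Large-subunit proteins included the members with the most tags. AT5G02870 and AT3G09630 encode L4, a protein that lines the tunnel through which the new chain leaves the ribosome. AT5G02870 had 1066 CPM in Altenb-2, 760 in Shigu-2, 755 in Kly-1 and 1074 in Vash-1. AT3G09630 had 560 CPM in Altenb-2, 656 in Shigu-2, 558 in Kly-1 and 586 in Vash-1. AT5G02870 was high in Altenb-2, where most other members were low, and in Vash-1, and it held 65.6% of the pair's tags in Altenb-2 and 64.7% in Vash-1, against 57.5% in Kly-1 and 53.7% in Shigu-2. The exact binomial intervals of Altenb-2 and Vash-1 lay above 64.2%, and that of Shigu-2 ended at 54.1%. These intervals cover counting error only and do not hold the spread between libraries, so their separation is no test of a difference between sets.

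AT1G70600 and RPL27AB encode L27A. AT1G70600 had 656 CPM in Altenb-2, 1073 in Shigu-2, 939 in Kly-1 and 966 in Vash-1. RPL27AB had 163 CPM in Altenb-2, 186 in Shigu-2, 159 in Kly-1 and 267 in Vash-1, and stood highest in Vash-1. AT1G70600 was near its own high end there too, but held its lowest share of the pair, 78.3%. EMB2296, an L8 gene named for the embryo-defective phenotype of its mutant, had 766 CPM in Altenb-2, 1037 in Shigu-2, 860 in Kly-1 and 808 in Vash-1. AT2G19730, the L28 gene, had 270 CPM in Altenb-2, 341 in Shigu-2, 330 in Kly-1 and 320 in Vash-1. These genes shared the low value in Altenb-2, except RPL27AB, whose lowest set was Kly-1.

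The 3 genes of L10, a protein that joins the 60S subunit late in its maturation, were far apart in level. RPL10C had 389 CPM in Altenb-2, 673 in Shigu-2, 729 in Kly-1 and 402 in Vash-1. RPL10A had 272 CPM in Altenb-2, 434 in Shigu-2, 352 in Kly-1 and 308 in Vash-1, and RPL10B stayed between 3.25 and 4.64 CPM. RPL10C held 67.1% of the group in Kly-1 and 56.3% in Vash-1, a span of 10.8 percentage points.

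L3 sits near the peptidyl transferase centre. RPL3A had 409 CPM in Altenb-2, 582 in Shigu-2, 570 in Kly-1 and 532 in Vash-1. RPL3B had 3.65 CPM in Altenb-2, 4.24 in Shigu-2, 2.46 in Kly-1 and 0.204 in Vash-1. These rest on 82 tags in Altenb-2, 158 in Shigu-2, 72 in Kly-1 and 5 in Vash-1. RPL3B was therefore near the smallest listed cluster in Vash-1 alone, where its rate was 0.0581 times that of the other 3 sets pooled (95% exact interval 0.0187 to 0.137, counting error only). It did not reach 5 CPM in any set and is not among the 36.

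L5 and L11 carry the 5S rRNA into the large subunit. RPL5A had 89.6 CPM in Altenb-2, 150 in Shigu-2, 156 in Kly-1 and 117 in Vash-1. RPL5B had 83.6 CPM in Altenb-2, 111 in Shigu-2, 119 in Kly-1 and 106 in Vash-1. The L5 pair was shared nearly evenly, with 51.7% to 57.4% of the tags at RPL5A. For L11, AT3G58700 had 31.7 CPM in Altenb-2, 58.2 in Shigu-2, 56.0 in Kly-1 and 47.7 in Vash-1. RPL16A, an L11 gene despite its symbol, had 10.2 CPM in Altenb-2, 9.70 in Shigu-2, 9.28 in Kly-1 and 11.9 in Vash-1. RPL16A held 24.3% of the L11 tags in Altenb-2 and 14.2% in Kly-1.

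RPL23AA and RPL23AB encode L23A, a protein at the mouth of the exit tunnel. RPL23AA had 209 CPM in Altenb-2, 348 in Shigu-2, 315 in Kly-1 and 330 in Vash-1. RPL23AB had 87.7 CPM in Altenb-2, 143 in Shigu-2, 121 in Kly-1 and 100.6 in Vash-1. The Vash-1 value was close to the high end at RPL23AA and to the low end at RPL23AB, so RPL23AA had its highest share there, 76.6%. RPL24B, known as SHORT VALVE1 for its role in gynoecium development, had 319 CPM in Altenb-2, 489 in Shigu-2, 440 in Kly-1 and 390 in Vash-1. RPL24A had 152 CPM in Altenb-2, 207 in Shigu-2, 204 in Kly-1 and 196 in Vash-1. Within the L24 pair the shares moved by 3.70 percentage points, and within the L7 pair by 2.82. The L7 gene AT2G01250 had 266 CPM in Altenb-2, 373 in Shigu-2, 393 in Kly-1 and 328 in Vash-1. Its paralogue AT2G44120 had 122 CPM in Altenb-2, 170 in Shigu-2, 189 in Kly-1 and 138 in Vash-1. All 6 genes were lowest in Altenb-2.

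P0 forms the base of the stalk that recruits translation factors. AT3G09200 had 67.4 CPM in Altenb-2, 128 in Shigu-2, 106 in Kly-1 and 82.8 in Vash-1. AT2G40010 had 4.63 CPM in Altenb-2, 4.38 in Shigu-2, 5.77 in Kly-1 and 3.26 in Vash-1. AT3G11250 had 4.10 CPM in Altenb-2, 11.04 in Shigu-2, 12.3 in Kly-1 and 8.52 in Vash-1. These rest on 92 tags in Altenb-2, 411 in Shigu-2, 360 in Kly-1 and 209 in Vash-1. It was the member with a 2-fold difference, at −1.26 in Altenb-2 on the log2 scale. In that direction and set, 4.55% of all genes passed 2-fold.

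AT4G10450, an L9 gene, was the other member that spanned 2-fold. It had 53.5 CPM in Altenb-2, 84.7 in Shigu-2, 102 in Kly-1 and 41.0 in Vash-1. It held 98.0% to 98.9% of the tags at the 3 L9 genes. The other L9 genes, PGY2 (PIGGYBACK2, named for a leaf phenotype) and AT1G33120, had 75 and 61 tags over all sets, and none upstream of the start codon. All 100 of the 50-base windows counted from the annotated start of each of these L9 genes occur at 2 places in the genome. For the other 38 members, every such window from the main peak on occurs once. The sources used here do not say how tags that match at more than 1 place were handled, so the levels of PGY2 and AT1G33120, and with them the share of AT4G10450, are uncertain.

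**Figure D3:**
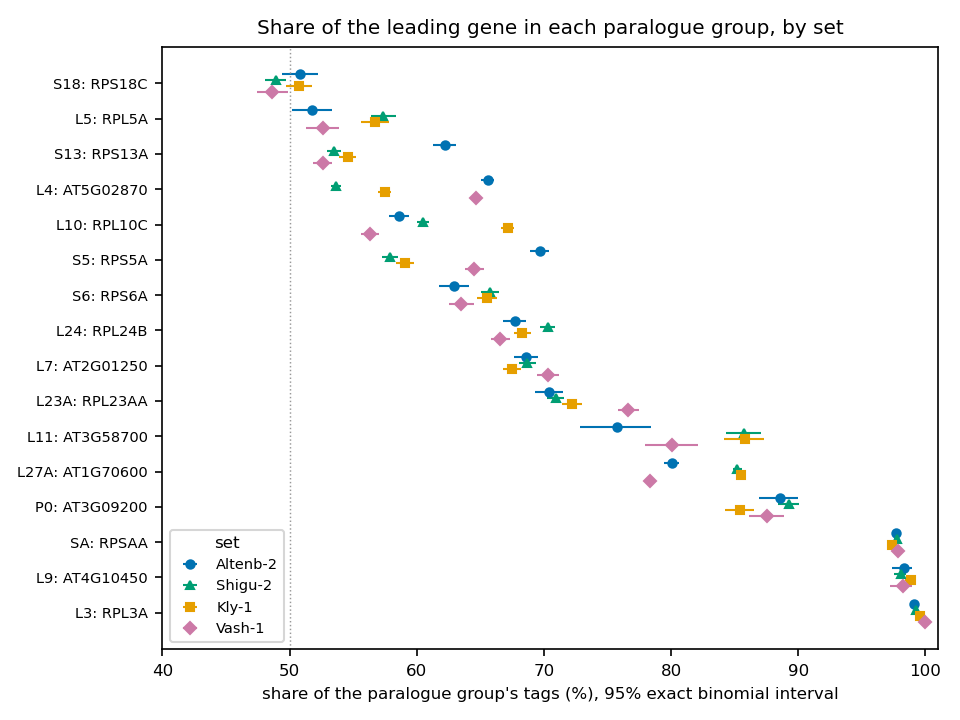
Share of a paralogue group's tags (percent) at its leading gene, for the 16 groups of more than 1 member, with 1 marker per pooled set and lines for 95% exact binomial intervals, which cover counting error only. S6, S18, SA, L7 and L24 keep nearly the same share in every set, while the L4 gene AT5G02870 reads 65.6% in Altenb-2 and 53.7% in Shigu-2 and RPS5A reads 69.7% and 57.9%.

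The shares that differed by 10 percentage points or more between sets were those of AT5G02870 and AT3G09630 (11.9 points), RPS5A and RPS5B (11.7), RPL10C (10.8), RPL10A (10.6), and AT3G58700 and RPL16A (10.1). RPS13A followed with 9.60 points, highest in Altenb-2 at 62.2% and lowest in Vash-1 at 52.6%. RPS5A, AT5G02870, RPL16A and RPS13A each had their highest share in Altenb-2, the set where most members were lowest.

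The position of the start was compared between sets next. A main peak upstream of the start codon was found for 38 members, and it was at the same base in all 4 sets for 29 of 38 (76.3%) and within 5 bp for 34 of 38 (89.5%). Peaks of genes with fewer tags rest on fewer counts, so members are set beside 1389 other protein-coding genes of like level, whose mean lay between the members' quartiles of 86.4 and 366 CPM and which include other ribosomal protein genes. Of these genes, 75.7% had the same base and 83.5% a peak within 5 bp, shares close to those of the members. Among all protein-coding genes with 50 tags or more and a cluster in every set, 57.1% had the same base and 66.7% a peak within 5 bp. The median of the mean level was 216 CPM for these members, 140 CPM for the genes of like level and 13.8 CPM for all 17106 protein-coding genes with 50 tags or more.

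Of the 9 members with a moving peak, 5 moved by less than 5 bp. AT2G40010 differed by 1 bp, RPL5B and RPL27AB by 2 bp, RPL10A by 3 bp and AT3G60770 by 4 bp. AT3G58700 moved 7 bp downstream in Altenb-2, RPS5A moved 8 bp downstream in Vash-1, and RPSAb moved 18 bp downstream in Shigu-2. RPL10B starts inside a pyrimidine run of the reference that begins upstream of the peak and holds 25 bases from the peak on. Its peaks lay 31 bp downstream in Altenb-2, 3 bp upstream in Kly-1 and 6 bp upstream in Vash-1 of the one in Shigu-2. These RPL10B positions rest on few tags. Its main cluster held only 73 tags for Altenb-2, with a fraction of 0.110 on the highest base. Shigu-2 had the most, 168 tags with a fraction of 0.185 there. Kly-1 had 136 tags (0.169), while Vash-1 had 105 tags (0.162). Whether the RPL10B start differed beyond counting error was not tested.

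Each main peak lay downstream of the annotated gene start, by 2 bp at RPL3B to 738 bp at RPL23AA. The same held for 97.3% of genes of like level and 92.6% of all protein-coding genes. The median distance downstream was 72.5 bp, against 112 bp for genes of like level and 89 bp for all protein-coding genes. The leader is the exonic sequence between the peak and the start codon, taken from the annotated transcript where it is shortest. Its median was 55 bases in members, 68 bases in genes of like level and 84 bases in all protein-coding genes. It was 69 bases in other cytosolic ribosomal protein genes and 39.5 bases in genes of plastid ribosomal proteins. Leaders under 30 bases were found at RPS6A (11 bases), RPL27AB (20) and AT5G02870 (21), which is 7.89% of members, against 15.1% of genes of like level and 12.9% of all protein-coding genes. The longest member leader was 189 bases, at AT2G40010.

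Nearly all tags of a member came from a single cluster. The main clusters held a median of 99.3% of a member's tags, against 98.3% in genes of like level and 91.1% in all protein-coding genes. Clusters from the start codon on made up 632 of the 884 member clusters (71.5%, against 68.5% in genes of like level and 38.04% in all protein-coding genes). They held 0.623% of the members' tags, against 1.88% in genes of like level and 6.32% in all protein-coding genes. RPL3A alone had 73 such clusters, none with more than 41 tags. AT3G09200 had the highest share of them among the 38, at 4.59% of its tags.

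Within the main cluster, the peak ratio is the deposited fraction of the cluster's tags on its highest base. It had a median of 0.458 in members (quartiles 0.364 and 0.638), of 0.429 in genes of like level (0.291 and 0.606) and of 0.417 in all protein-coding genes (0.289 and 0.580). Members ranged from focused to dispersed. AT2G40010 had 0.973 of the tags on 1 base of a cluster 7 bp wide. EMB2296 had 0.931 of the tags on 1 base although its cluster was 140 bp wide. AT4G10450 (0.888), RPL24A (0.877), RPL3B (0.851), AT1G70600 (0.796) and RPL3A (0.777) followed. RPL10B had 0.166, AT3G58700 0.202, RPL16A 0.237 and AT3G09630 0.244. The L4 pair differed in shape as well as in level, since AT5G02870 had a ratio of 0.675. The L24 pair also differed, with 0.877 at RPL24A and 0.390 at RPL24B. The median width was 78.8 bp in members, below the 104 bp of genes of like level and above the 53.0 bp of all protein-coding genes.

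**Figure D4:**
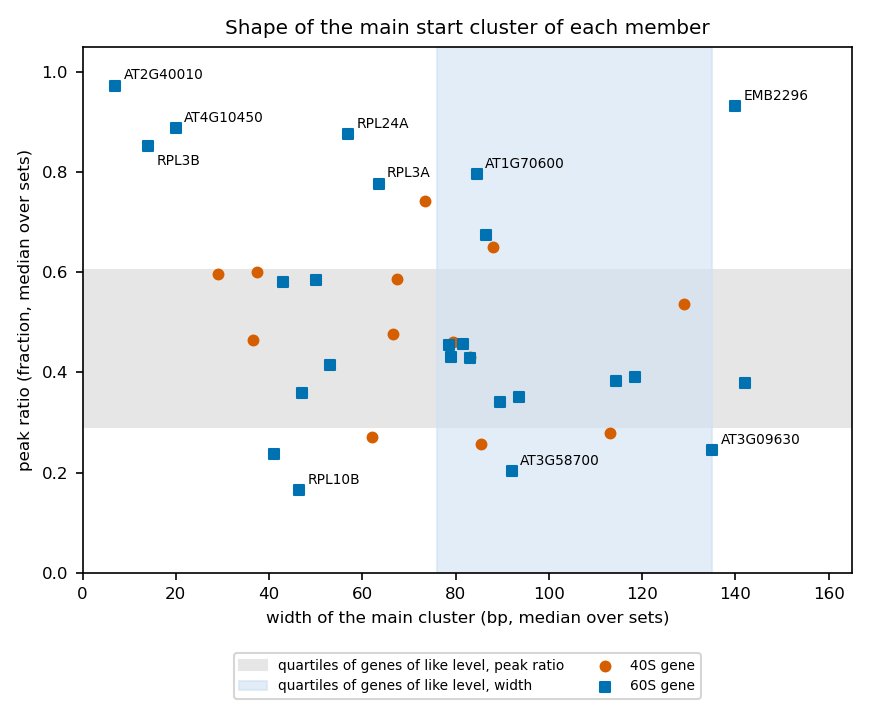
Peak ratio (fraction of the main cluster's tags on its highest base) against the width of the main cluster in bp for 38 members, each the median over the 4 sets, with bands for the quartiles of protein-coding genes of like level. AT2G40010, RPL3B and AT4G10450 sit in narrow clusters with ratios above 0.85, and EMB2296 reaches 0.931 in a cluster 140 bp wide.

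Promoter sequence was set beside these starts. A site II element lay from 150 bases upstream to the base before the peak in 33 of 38 members (86.8%), against 23.8% of genes of like level and 20.1% of all protein-coding genes. In 23 members there were 2 matches or more (60.5%, against 16.6% and 13.1%), where elements of both strands that share bases count separately. A telo-box lay within 100 bases of the peak in 32 of 38 (84.2%, against 15.8% and 10.9%). Both were found in 27 members (71.1%, against 7.85% and 3.68%). The TATA motif was found in 20 (52.6%, against 30.4% and 23.9%). At least 1 of the 3 was found at each of the 38 members, and none of the 3 at 45.9% of genes of like level and 52.8% of all protein-coding genes. Other cytosolic ribosomal protein genes held them in like shares, 82.5% for site II, 85.7% for the telo-box and 49.2% for TATA. Genes of plastid ribosomal proteins held site II in 32.1%, the telo-box in 7.14% and TATA in 3.57%.

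The positions of the motifs differed. Site II elements began at a median of 106 bases upstream where they ran with the gene (position −106, 31 matches) and at −87 where they ran against it (40 matches). By stretches of 20 bases, 16 members had a telo-box that began at −20 to −1 and 11 had one that began at −60 to −41. There were 5 members with one at −80 to −61, 4 with one at 1 to 20, 2 with one at 41 to 60 and 2 with one at 81 to 100. The stretch from −40 to −21, which holds the TATA motifs (−40 to −30), had 3. In all protein-coding genes, 1.502% had a telo-box at −20 to −1, 1.12% at −60 to −41, 0.479% at −80 to −61 and 1.41% at −40 to −21. The telo-box covered the peak base in 7 members, the ones shown first above, which is 18.4% of members, against 1.30% of genes of like level and 0.742% of all protein-coding genes. In RPS6A, RPS6B and AT1G70600 the peak was the last base of the box, and in RPL10C, RPL24A and RPS5B it was the second base of the reversed box.

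**Figure D5:**
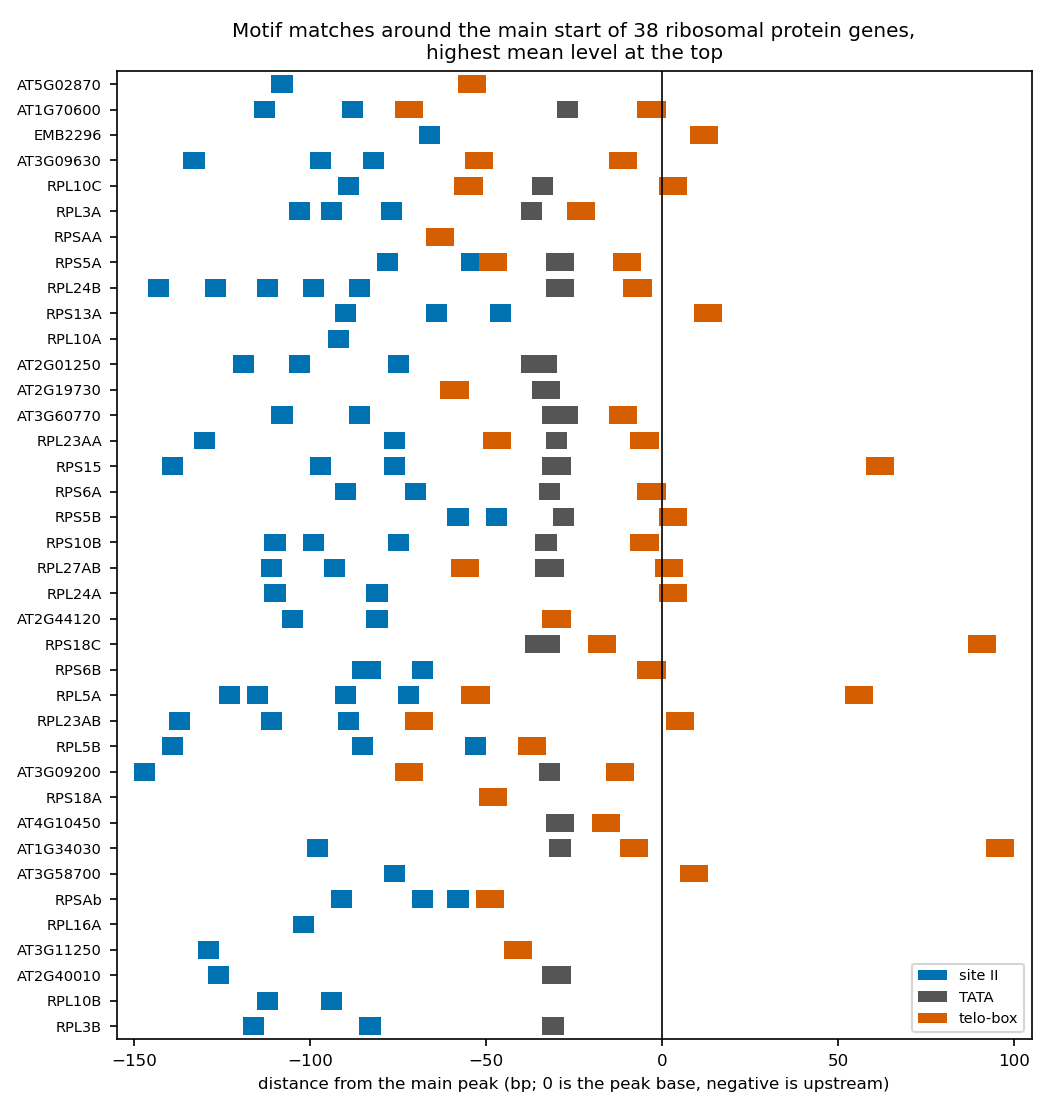
Matches of the site II element (blue), the TATA motif (grey) and the telo-box (orange) by distance in bp from the main peak for the 38 members with a main peak upstream of the start codon, ordered by mean level. Site II matches lie upstream of −40, and telo-boxes are most frequent within 20 bp upstream of the peak, with 7 of them across the peak line.

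The members without a telo-box were RPL10A, AT2G01250, RPL16A, AT2G40010, RPL10B and RPL3B. RPL10A and AT2G01250 had mean levels of 341 and 340 CPM, and the other 4 had 2.64 to 10.2 CPM. RPSAb and AT3G11250, at 10.3 and 8.98 CPM, held a telo-box. The members without a site II element were AT4G10450, RPS18A, RPS18C, AT2G19730 and RPSAA, with mean levels of 70.3 to 434 CPM. No match says only that these letters are not in the window of the reference.

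A pyrimidine-purine step, the usual one at plant starts, lay at the peak of 30 of 38 members (78.9%), against 89.1% of genes of like level and 90.6% of all protein-coding genes. The peak base was A in 19 members, G in 13, C in 5 and T in 1. A pyrimidine at the peak was thus found in 6 of 38 (15.8%), against 5.47% of genes of like level and 4.78% of all protein-coding genes. These 6 were RPL10B, RPL23AB, RPS18A, RPS15, RPL16A and AT3G60770. Other cytosolic ribosomal protein genes had a pyrimidine at the peak in 9.52%, and genes of plastid ribosomal proteins in 10.7%. A run of 5 or more pyrimidines from the peak on, as in the 5′ terminal oligopyrimidine motif of animal ribosomal protein mRNAs, was found at 2 members (5.26%, against 3.24% of genes of like level and 2.67% of all protein-coding genes): RPS15, with 9 pyrimidines, and RPL10B, with 25.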

How the data were processed

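The submitters' processing notes name STAR 2.7.9a as aligner; for the genome build and the rule of clustering, the sources used here give nothing. The authors deposited clusters of CAGE start sites with raw counts per cluster, the smallest being 5 tags, and a peak ratio, the fraction of a cluster's tags at its highest base. Per the file headers, positions and widths count bases. The labels name no molecular identifiers. Clusters within 5000 bp of the nuclear rRNA genes were left out of totals. Coordinates were set on TAIR10.1, where 70.8% of peaks fall on a pyrimidine-purine step, against 19.99% at 50 bp downstream. Levels are sums per gene in CPM, and differences are on log2(CPM + 0.5) for genes that reached 5 CPM in any set, described at 2-fold. The 2-fold calls were checked on simulated data. Motifs were searched by exact match around main peaks of genes with 50 tags or more. Python 3.11.15, numpy 2.4.6, pandas 2.3.3 and scipy 1.17.1 were used. All 40 members are named; values in every set are given by level, range and leading paralogue. Of the related lists, 66 of 70 and 28 of 29 genes had a ribosomal product in the annotation. The members and lists were chosen with earlier results of these data known. The planned edgeR comparison of treatments was not run, since no column names a library.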

Additional observations from a re-analysis of the deposited data

Results flagged for a closer look

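RPL3A had 11 tags on the opposite strand inside the gene, in 2 clusters, and EMB2296 had 10 such tags in 1 cluster, outside the windows of any gene on that strand. They were singled out because they lie outside the strand the levels use, and the clusters cannot be split by treatment, so no value of the control plants stands beside them. All came from the Altenb-2 set, in which RPL3A had 9193 tags and EMB2296 had 17208 tags on the sense strand. The other 38 members had 0 listed antisense tags of this kind, where clusters of fewer than 5 tags are not listed. How often other genes have such tags was not counted, so the number of members with them cannot be called high or low.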

How the results depend on the processing

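No paired analysis was possible because the columns carry no library or replicate number; leaving out replicates was not run for the same reason. The counts of members spanning 2-fold (2) and lying 2-fold from the other sets (1) became 18 and 3 with the rRNA repeats kept in the totals (35 members at 5 CPM), which adds the unequal rRNA shares to every gene; 4 and 2 with no minimum level, which adds RPL3B and PGY2 to the span; and 1 and 0 at 20 CPM. Leaving out the Altenb-2 or the Vash-1 set gave a span count of 1 each, and leaving out Shigu-2 gave 2 members 2-fold from the others. No shares of all genes are given beside these alternative counts, which therefore cannot be called high or low. Members' share of tags was 0.542% with the repeats kept, 1.0302% with peaks up to the start codon and 1.0343% with clusters of 10 tags or more. Median differences, alternatives chosen after seeing the data, were −0.70 (Altenb-2), 0.61 (Shigu-2), 0.35 (Kly-1) and −0.22 (Vash-1) with the repeats kept; median-of-ratios scaling gave −0.31 in Altenb-2, 0.19 in Shigu-2 and, with the sign changed, 0.0029 in Vash-1. The median peak ratio over all members and sets, 0.464, was 0.479 over all clusters of 50 tags or more, 0.472 in Altenb-2 and 0.471 in Vash-1; the median width, 75 bp over members and sets, was 88 bp in Shigu-2. Other alternatives for these counts, shares and medians, 48 in all, stayed within 1.5 times or within their spread. The range between sets moved to the other side of 2-fold for 16 members, each with the repeats kept. RPL3B, PGY2 and AT1G33120 had the fewest tags. The levels of PGY2 and AT1G33120 are also uncertain because their start sequence occurs at 2 places in the genome.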
